A study of Mus musculus with 8 samples.

Results

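The gene group described here covers protein folding and quality control in the endoplasmic reticulum (ER). It is a list of 38 genes in 5 roles: chaperones and co-chaperones of folding, disulfide bond formation, ER-associated degradation (ERAD), the sensors of the unfolded protein response (UPR), and the translocation channel. A gene was read from its brightest probe set, by the mean of the 8 arrays, among those that name it alone, and 37 of the 38 genes, of 17097 genes in all, were measured in this way (Vcp, the ATPase that pulls proteins out of the membrane for degradation, is not analysed here). They comprise 12 folding genes, 8 disulfide genes, 11 ERAD genes, 4 sensor genes (with the transcription factor gene Xbp1 placed among them) and 2 translocation genes.

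The data are Affymetrix expression arrays of total RNA from isolated mouse islets of Langerhans, with 2 arrays in each of 4 groups. The groups were hIAPP islets after PBA, untreated hIAPP islets, wild-type islets after PBA, and untreated wild-type islets. The hIAPP mice carry a transgene for human islet amyloid polypeptide, a beta-cell peptide that can aggregate, and the labels give FVB/N-Tg(Ins2-IAPP)RFHSoel/J as the strain background of every sample, wild type included. In this transgene the Ins2 promoter drives expression in beta cells. All mice were 20 weeks old. PBA (4-phenylbutyrate, a small molecule used as a chemical chaperone) was given in the drinking water at 1 g/kg per day for 12 weeks, starting at 8 weeks of age. The labels do not say whether an array holds 1 animal or a pool, so the p-values cover the spread between arrays, which may be technical.

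Secreted proteins such as insulin enter the ER through the SEC61 channel, fold with the help of BiP (Hspa5) and GRP94 (Hsp90b1) and the lectins calnexin and calreticulin, and gain disulfide bonds from protein disulfide isomerases that are reoxidised by ERO1 enzymes. Proteins that fail to fold are moved back across the membrane and degraded by ERAD, where the ubiquitin ligase HRD1 (Syvn1) with its partner SEL1L is the central machine. When unfolded proteins build up, the sensors IRE1 (Ern1), ATF6 and PERK (Eif2ak3) raise the transcription of chaperone and ERAD genes and lower translation. Beta cells make large amounts of proinsulin and rely on this system.

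ATF6 and XBP1, the factor made after IRE1 acts, are known to bind short promoter motifs, and exact matches to 3 of these were counted on both strands of RefSeq windows (GRCm38.p6) that run from 250 bases before to 50 bases after each annotated start. The ER stress element ERSE, which is CCAAT, then 9 bases of any kind, then CCACG, matched in 10 of the 31 listed genes with a window (32.258%) and in 37 of 27025 genes with a window (0.137%). The shorter ERSE-II, which is ATTGG, then 1 base of any kind, then CCACG, matched in 2 of 31 (Herpud1 and Dnajb11, 6.452%) and in 12 of 27025 (0.044%). The core of the UPR element, TGACGTG, matched in 2 of 31 (Hspa5 and Vcp, 6.452%) and in 601 of 27025 (2.224%). The 10 genes with an ERSE were Calr, Canx, Creld2, Derl3, Dnajc3, Ero1b, Hsp90b1, Hspa5, Pdia6 and Syvn1, and no 2 matches in a listed gene overlapped. The 5 sequences printed here are those of the genes whose changes are described most fully, with Hspa5 as the best-known ERSE gene. Each is the 250 bases before the start, 5′ to 3′ on the strand of the gene, and capitals mark the fixed letters of a match. The windows are chr19:6046326-6046575 (+) for Syvn1, chr14:45318573-45318822 (-) for Ero1a, chr10:75893148-75893397 (+) for Derl3, chr8:94386179-94386428 (+) for Herpud1 and chr2:34771840-34772089 (+) for Hspa5.
Syvn1: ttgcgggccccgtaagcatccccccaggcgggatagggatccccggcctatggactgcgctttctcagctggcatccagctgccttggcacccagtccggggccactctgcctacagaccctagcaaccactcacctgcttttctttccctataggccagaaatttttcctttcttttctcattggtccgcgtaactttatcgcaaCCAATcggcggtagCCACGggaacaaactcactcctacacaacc
Ero1a: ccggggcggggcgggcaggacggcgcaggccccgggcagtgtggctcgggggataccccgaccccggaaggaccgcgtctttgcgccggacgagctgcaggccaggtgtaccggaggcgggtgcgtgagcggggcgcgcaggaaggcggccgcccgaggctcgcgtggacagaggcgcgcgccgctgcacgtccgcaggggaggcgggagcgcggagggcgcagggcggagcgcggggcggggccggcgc
Derl3: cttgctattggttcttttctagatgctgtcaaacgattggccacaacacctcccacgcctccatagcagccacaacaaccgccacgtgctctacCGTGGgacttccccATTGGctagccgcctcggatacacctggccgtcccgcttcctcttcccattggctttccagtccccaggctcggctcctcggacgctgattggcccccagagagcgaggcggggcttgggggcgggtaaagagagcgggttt
Herpud1: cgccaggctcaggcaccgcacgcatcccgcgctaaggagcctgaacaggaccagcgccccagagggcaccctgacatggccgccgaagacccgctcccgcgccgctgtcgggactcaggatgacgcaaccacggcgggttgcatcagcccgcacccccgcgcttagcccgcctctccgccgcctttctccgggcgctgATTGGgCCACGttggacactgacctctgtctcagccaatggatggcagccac
Hspa5: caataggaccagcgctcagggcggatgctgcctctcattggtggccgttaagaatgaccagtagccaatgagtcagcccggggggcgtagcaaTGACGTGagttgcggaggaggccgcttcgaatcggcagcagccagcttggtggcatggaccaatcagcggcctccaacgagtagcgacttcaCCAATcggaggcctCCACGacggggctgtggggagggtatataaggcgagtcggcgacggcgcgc
With the base just before the start numbered -1, Syvn1 holds 1 ERSE at -44 to -26, read on the strand of the gene, and Derl3 holds 1 on the opposite strand at -156 to -138. Herpud1 holds an ERSE-II at -52 to -42, and Hspa5 holds an ERSE at -65 to -47 and a UPR element core at -157 to -151. Ero1a holds none of the 3 letter strings in its window. A match is a description of the letters and does not show binding.

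**Figure D1:**
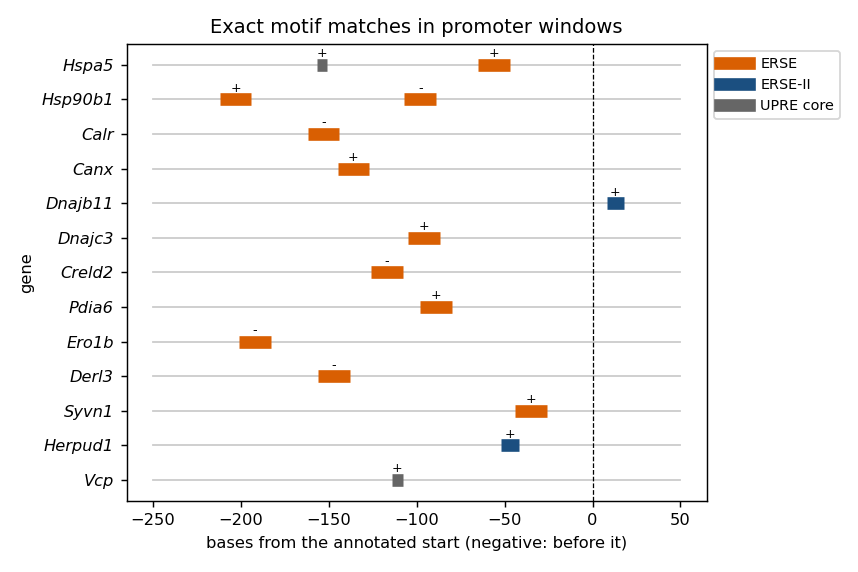
Exact matches to ERSE, ERSE-II and the UPR element core in the windows of the 13 listed genes that hold any, drawn as distance in bases from the annotated start (dashed line). A plus or minus sign gives the strand of the match relative to the gene; most matches lie before the start, and that of Dnajb11 lies 8 to 18 bases after it.

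The arrays differed in the levels of cell-type markers, which stand beside the results. Values are log2 levels from the authors' RMA normalisation, rounded to 1 decimal, and a level of 4.68 is the 95th percentile of 23 non-specific control probe sets. All 37 genes lay above that level on all 8 arrays. The median of 10 beta-cell markers was 11.3 and 11.3 in hIAPP islets after PBA, 10.75 and 10.75 in untreated hIAPP islets, 11.25 and 11.45 in wild-type islets after PBA, and 11.35 and 11.35 in untreated wild-type islets. The medians of 15 macrophage markers were 7.9 and 7.8, 9.4 and 8.9, 6.3 and 6.3, and 6.9 and 6.6 in the same groups, and those of 14 stellate-cell markers were 7.4 and 7.55, 9.35 and 9.15, 6.5 and 6.1, and 6.75 and 6.15. Untreated hIAPP islets were thus lowest in beta-cell markers and highest in both of the others. The median of 21 acinar markers, which report exocrine tissue, was 8.5 and 10.3 in hIAPP islets after PBA, 11.2 and 12.4 in untreated hIAPP islets, 11.9 and 10.8 in wild-type islets after PBA, and 12.2 and 10.6 in untreated wild-type islets. On 1 array of wild-type islets after PBA (replicate 1) the spike-in controls had a median of 6.6, against 9.3 to 9.7 on the other arrays. In bulk islet RNA, fewer cells of a type and less RNA per cell cannot be told apart.

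Most ER genes ranged little in size, although many shifted the same way after PBA in hIAPP islets. There the arrays of 21 of 37 were higher without overlap (22.6% of all genes) and of 1 lower (20.8%). Over the 8 arrays a gene ranged by a median of 0.4 on the log2 scale, from 0.1 for Derl1 to 1.2 for Derl3, and 31 of 37 genes ranged by 0.5 or less. The median range over all genes was 0.5. Those are dimmer, with array medians of 5.7 to 5.9 against 10.2 to 10.4 for the ER genes, so the 2 ranges are not a like comparison. The folding genes had array medians of 11.7 and 11.65 in hIAPP islets after PBA, 11.55 and 11.5 in untreated hIAPP islets, 11.35 and 11.55 in wild-type islets after PBA, and 11.45 and 11.5 in untreated wild-type islets. Those 4 groups were close, and in each of them the 2 arrays of a typical gene differed by 0.0 to 0.1.

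**Figure D2:**
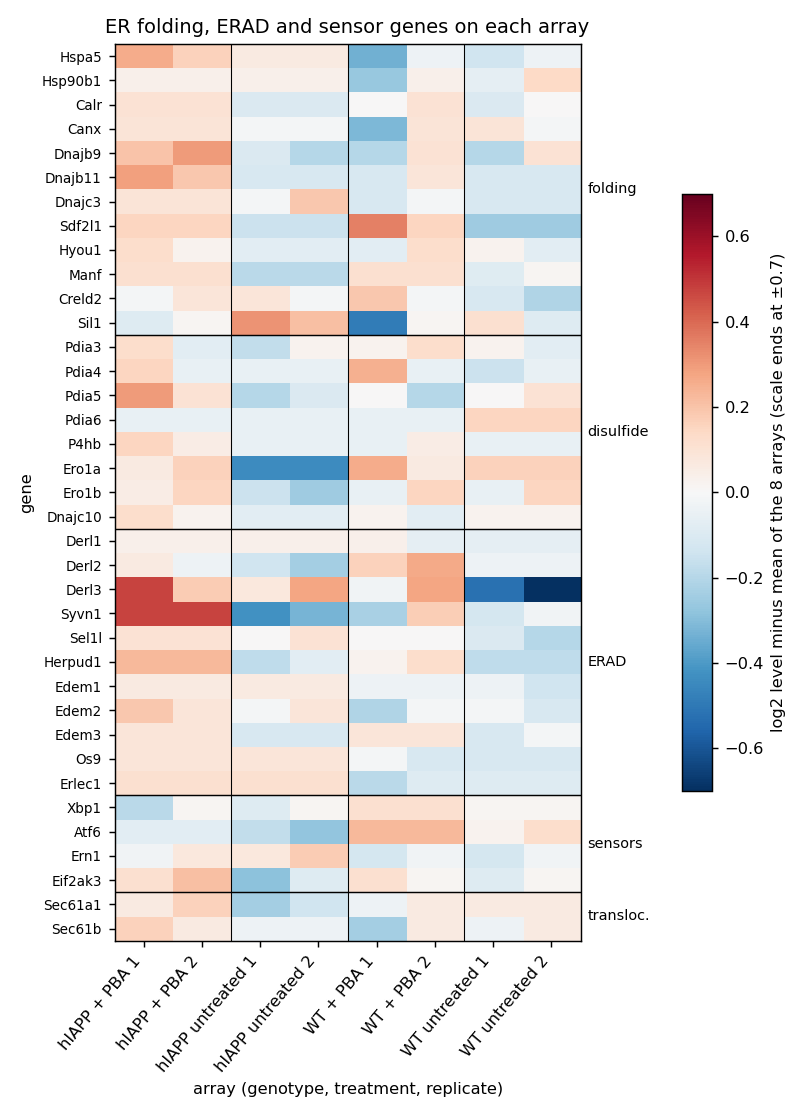
Log2 level of the 37 ER genes on each of the 8 arrays, minus the gene's mean over the arrays (colour scale ending at ±0.7), with genes in rows by role and arrays in columns. Most cells are pale; the darkest are Derl3 in untreated wild-type islets, Syvn1 and Derl3 in hIAPP islets, and Ero1a in untreated hIAPP islets.

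The comparison of untreated hIAPP islets with untreated wild-type islets asks what the transgene changed. Derl3 rose and Ero1a fell, and the other 35 genes did not pass the test on their brightest probe sets. The 2 of 37 genes past an adjusted p of 0.05 (limma, two-sided, Benjamini-Hochberg over 17097 genes) compare with 11.0% of all genes, 7.77% higher and 3.19% lower. The median change was -0.05 for the ER genes and -0.05 for all genes. The arrays of the 2 groups did not overlap for 12 ER genes that were higher and 10 that were lower in untreated hIAPP islets, against 20.8% and 25.2% of all genes.

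The second comparison, of PBA against no treatment within the hIAPP genotype, asks what the compound changed where the transgene is present. Syvn1 and Ero1a rose, and the other 35 genes did not pass. These 2 of 37 genes compare with 8.09% of all genes called, of which 1.78% were higher and 6.32% lower. The median change was 0.15 for the ER genes and 0.0 for all genes, with 26 ER genes above 0, 3 below and 8 at 0. The arrays did not overlap for 21 ER genes that were higher in hIAPP islets after PBA and for 1 that was lower (Sil1), against 22.6% and 20.8% of all genes. The beta-cell markers had a median difference of 0.43 in this comparison and -0.35 in that of the transgene without PBA, and their part in the ER values was not tested. The 42 further probe sets of the ER genes, fitted with all probe sets, held calls for Pdia6 and Derl2 with the transgene and for Syvn1 and Pdia6 after PBA in hIAPP islets. Both comparisons share the untreated hIAPP arrays, so their values are not independent of each other. Without the 2 arrays in doubt (the array with low spike-in controls and replicate 1 of hIAPP islets after PBA, with the lowest acinar signal), Syvn1 and Ero1a no longer passed (adjusted p = 0.1156 for each, limma), and for the transgene without PBA Ero1a passed (0.0445) and Derl3 did not (0.0735).

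In the other comparisons of 2 groups, and in the interaction, no ER gene passed with limma. PBA in wild-type islets called 0 of 37 genes, against 0.292% of all genes, with a median change of 0.05. The transgene under PBA called 0, against 0.415%, and hIAPP islets after PBA called 0 against untreated wild-type islets, against 0.368%. The difference between the PBA effects in the 2 genotypes, tested as an interaction, called 0, against 1.96%. At an unadjusted p under 0.05 there were 4 ER genes for PBA in wild-type islets (10.5% of all genes), 6 for the transgene under PBA (12.1%), 7 for hIAPP islets after PBA against untreated wild type (11.0%) and 5 for the interaction (16.2%). The counts of 4 and 5 of 37 are near the shares over all genes. Averaged over both treatments, the transgene called 3 ER genes against 8.77% of all genes: Derl3 was higher (6.12% of all genes), and Ero1a and Atf6 were lower (2.64%). Averaged over both genotypes, PBA called 2 (Sdf2l1 and Syvn1) against 5.57%, both of them higher (1.29%). With the limma variance fitted as a trend on level, PBA in wild-type islets called 1 ER gene (Sdf2l1, against 0.702% of all genes), hIAPP islets after PBA against untreated wild type 3 (1.01%), and the interaction 2 (Ero1a and Syvn1, 3.37%).

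The scaling of the arrays bears on the direction of the group. The array median over all genes was 5.9 in untreated hIAPP islets and 5.7 in the other 3 groups. Setting all array medians equal lowered every transgene change without PBA by 0.2 and raised every PBA change in hIAPP islets by 0.2. The ER calls were then 1 higher and 9 lower for the transgene, beside 1083 higher and 3266 lower among all 17097 genes (25.4% called). For PBA in hIAPP islets the ER calls were 17 higher and 0 lower, beside 2612 higher and 888 lower among all genes (20.5%). Such a shift is the same for every gene, so it cannot change the ER median relative to the median of all genes. That difference was 0.0 for the transgene (-0.25 against -0.25), and PBA in hIAPP islets gave 0.35 against 0.2.

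**Figure D3:**
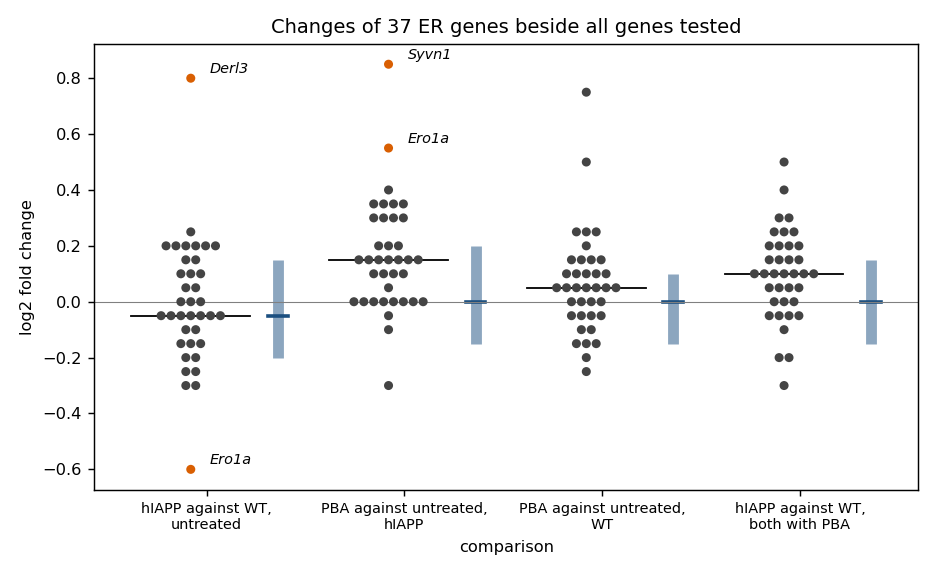
Log2 fold changes of the 37 ER genes in 4 comparisons (points, with a line at their median), each beside the median and the middle 50% of all 17097 genes (blue tick and bar). Orange points passed an adjusted p of 0.05, which were Derl3 and Ero1a for the transgene without PBA and Syvn1 and Ero1a for PBA in hIAPP islets.

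Among the 12 folding genes none passed in a comparison of 2 groups. The abundant ER chaperones BiP and GRP94 differed little. Hspa5, which encodes BiP, had log2 levels of 11.8 and 11.7 in hIAPP islets after PBA, 11.6 and 11.6 in untreated hIAPP islets, 11.2 and 11.5 in wild-type islets after PBA, and 11.4 and 11.5 in untreated wild-type islets. On this probe set the hIAPP arrays lay above the wild-type arrays with and without PBA. Yet the transgene difference was 0.15 without PBA (95% interval -0.14 to 0.44, adjusted p = 0.5157, limma) and 0.40 under PBA (0.11 to 0.69, adjusted p = 0.2852). A second probe set of Hspa5, whose arrays overlapped in both comparisons, gave 0.05 and 0.10 (adjusted p = 0.8826 and 0.807 in the limma fit of all probe sets). Hsp90b1, which encodes GRP94, had 12.0 on all 4 hIAPP arrays, 11.7 and 12.0 in wild-type islets after PBA, and 11.9 and 12.1 in untreated wild-type islets. Its transgene difference without PBA was 0.0, with an interval of -0.31 to 0.31.

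Sdf2l1, a partner of the BiP cycle that is induced by ER stress, was the folding gene that passed for PBA averaged over both genotypes. Its levels were 11.2 and 11.2 in hIAPP islets after PBA, 10.9 and 10.9 in untreated hIAPP islets, 11.4 and 11.2 in wild-type islets after PBA, and 10.8 and 10.8 in untreated wild-type islets. All 4 PBA arrays lay above all 4 untreated arrays. Averaged over both genotypes, PBA raised Sdf2l1 by 0.40 (SE 0.073, adjusted p = 0.0253, limma), a fold change of 1.32. The difference was 0.30 in hIAPP islets (adjusted p = 0.1338) and 0.50 in wild-type islets (adjusted p = 0.1489), and neither passed alone. The averaged call passed in 1 of 8 fits that left out an array (without wild type after PBA, replicate 2), with changes of 0.35 to 0.45, and it was lost with the acinar level as a covariate (0.43, adjusted p = 0.1302).

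The remaining folding genes were flat or differed by at most 0.40. Dnajb11, an ER co-chaperone of BiP, had 10.4 and 10.3 in hIAPP islets after PBA against 10.0 and 10.0 in untreated hIAPP islets, a difference of 0.35 that just missed the threshold (adjusted p = 0.0979, limma). Dnajb9, another such co-chaperone, had 11.9 and 12.0 against 11.6 and 11.5, a difference of 0.40 (adjusted p = 0.1583), and Manf, a secreted ER stress factor, had 12.2 and 12.2 against 11.9 and 11.9, a difference of 0.30 (adjusted p = 0.1026). They were among 8 of the 12 folding genes whose arrays were higher in treated than in untreated hIAPP islets without overlap (22.6% of all genes). The arrays of 1 folding gene were lower without overlap (20.8%). In wild-type islets the PBA difference was 0.10 for Dnajb11, 0.0 for Dnajb9 and 0.15 for Manf. Calr and Canx, the lectin chaperones, differed by 0.20 and 0.10 after PBA in hIAPP islets, and by -0.05 and -0.05 with the transgene.

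Hyou1, a large Hsp70-type ER chaperone, Dnajc3, which binds BiP and restrains PERK, and Creld2, an ER stress gene, had PBA differences of 0.15, 0.0 and 0.0 in hIAPP islets. Sil1, the nucleotide exchange factor of BiP, ran the other way, with 8.5 and 8.6 in hIAPP islets after PBA against 8.9 and 8.8 in untreated hIAPP islets. That difference was -0.30 (adjusted p = 0.3488, limma) and did not pass.

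Of the 8 disulfide genes, read from their brightest probe sets, Ero1a was called, and a dimmer probe set of Pdia6 was called in the same comparisons. ERO1 alpha passes electrons from protein disulfide isomerases to oxygen. Its levels were 9.0 and 9.1 in hIAPP islets after PBA, 8.5 and 8.5 in untreated hIAPP islets, 9.2 and 9.0 in wild-type islets after PBA, and 9.1 and 9.1 in untreated wild-type islets. Untreated hIAPP islets stood apart below the other 3 groups, which overlapped. Ero1a fell by 0.60 with the transgene in the absence of PBA (SE 0.106, 95% interval -0.85 to -0.35, adjusted p = 0.0124, limma). PBA raised it by 0.55 in hIAPP islets (SE 0.106, 95% interval 0.30 to 0.80, adjusted p = 0.0227), a fold change of 1.46. In wild-type islets the PBA difference was 0.0 (-0.25 to 0.25), and under PBA the transgene difference was -0.05 (-0.30 to 0.20). The interaction was 0.55 and did not pass (SE 0.151, adjusted p = 0.1261). Averaged over both treatments the transgene change was -0.33 (SE 0.075, adjusted p = 0.0416), a call kept in 1 of 8 fits that left out an array, and the PBA change averaged over both genotypes just missed the threshold (0.28, adjusted p = 0.0884).

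The 3 probe sets of Ero1a did not agree. In the fit of all probe sets the transgene change was -0.60 for the brightest set and -0.15 and -0.05 for the others, and the PBA change in hIAPP islets was 0.55, 0.45 and 0.20 (adjusted p = 0.0399, 0.0664 and 0.4833, limma). With the acinar level as a covariate the transgene change was -0.62 (adjusted p = 0.0199), and the PBA change of 0.66 no longer passed (adjusted p = 0.1614). The PBA call passed in 2 of 8 fits that left out an array (without either array of wild type after PBA), and the transgene call in 4 of 8, lost whenever 1 of the 4 compared arrays was left out. The sizes moved little in those fits, from 0.50 to 0.60 for PBA and at -0.60 in all 8 for the transgene.

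The other disulfide genes did not pass in any comparison on their brightest probe sets. The levels of Ero1b, the ERO1 form that is abundant in pancreatic islets, were 12.8 and 12.9 in hIAPP islets after PBA, 12.6 and 12.5 in untreated hIAPP islets, 12.7 and 12.9 in wild-type islets after PBA, and 12.7 and 12.9 in untreated wild-type islets. As for Ero1a, untreated hIAPP islets were lowest, and the differences were -0.25 for the transgene without PBA (adjusted p = 0.2554, limma) and 0.30 for PBA in hIAPP islets (adjusted p = 0.1947). After PBA in hIAPP islets its second probe set differed by 0.35 and its dimmest by 0.55 (adjusted p = 0.155 and 0.0582 in the limma fit of all probe sets). Pdia5, a protein disulfide isomerase, had 9.4 and 9.2 in hIAPP islets after PBA against 8.9 and 9.0 in untreated hIAPP islets, a difference of 0.35 (adjusted p = 0.1362), and -0.15 in wild-type islets. Pdia6, another isomerase, had probe sets that did not agree. The brightest was at 11.6 on all arrays of the first 3 groups and at 11.8 and 11.8 in untreated wild-type islets, with a transgene difference of -0.20 without PBA and a PBA difference of 0.0 in hIAPP islets. The second read 7.4 and 7.3 in hIAPP islets after PBA, 6.3 and 6.3 in untreated hIAPP islets, 6.8 and 7.2 in wild-type islets after PBA, and 7.4 and 7.3 in untreated wild-type islets. In the limma fit of all probe sets it was called at -1.05 for the transgene without PBA (adjusted p = 0.0058) and at 1.05 for PBA in hIAPP islets (adjusted p = 0.0091). Untreated hIAPP islets were lowest on that set, as for Ero1a. P4hb, the main protein disulfide isomerase, Pdia4 and Dnajc10, an ER disulfide reductase, differed by 0.15, 0.10 and 0.15 after PBA in hIAPP islets. Pdia3, the isomerase that works with calnexin and calreticulin, was read by a dim probe set at 5.3 to 5.6, which limits what its differences of 0.10 and less can show. For the transgene without PBA, 6 of the 8 disulfide genes lay below 0, with a median of -0.15, and 7 of 8 lay above 0 for PBA in hIAPP islets, with a median of 0.15.

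**Figure D4:**
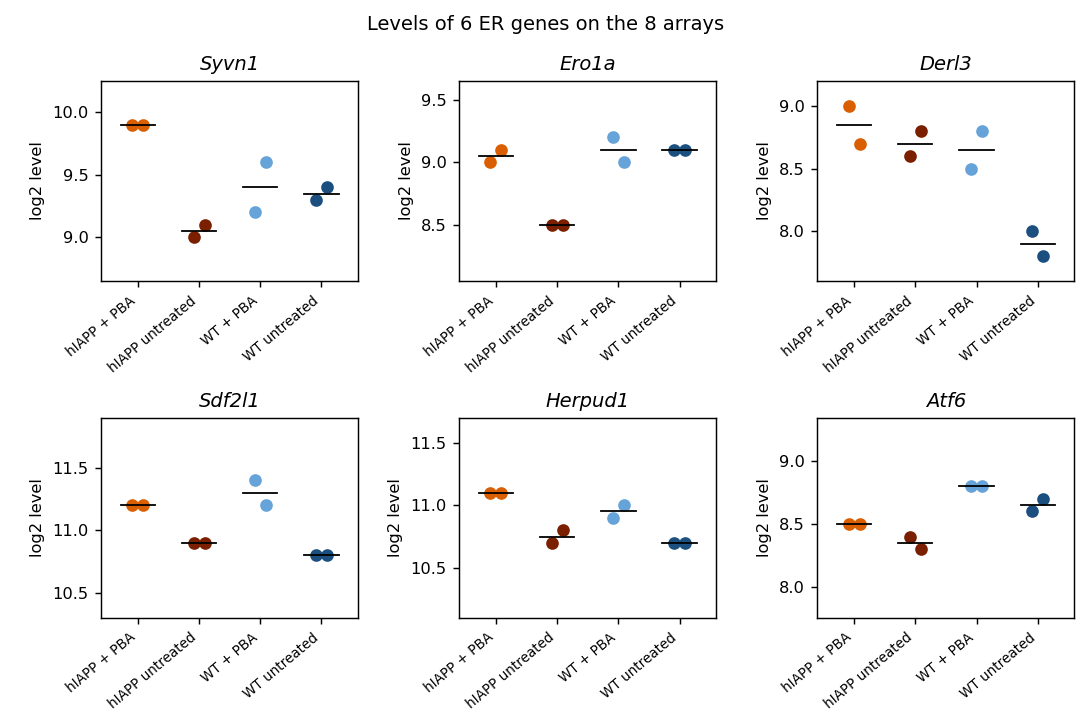
Log2 levels of Syvn1, Ero1a, Derl3, Sdf2l1, Herpud1 and Atf6 on the 8 arrays, with a point for each array and a line at the mean of the 2 arrays of a group. The vertical axes all span the same width, each centred on the range of its gene. Untreated hIAPP islets are lowest for Syvn1 and Ero1a, and untreated wild-type islets are lowest for Derl3.

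Among the 11 ERAD genes, read from their brightest probe sets, Syvn1 and Derl3 changed. Syvn1 encodes HRD1, the ubiquitin ligase that marks misfolded ER proteins for the proteasome. Its levels were 9.9 and 9.9 in hIAPP islets after PBA, 9.0 and 9.1 in untreated hIAPP islets, 9.2 and 9.6 in wild-type islets after PBA, and 9.3 and 9.4 in untreated wild-type islets. Both arrays of PBA-treated hIAPP islets lay above the other 6 arrays. PBA raised Syvn1 in hIAPP islets by 0.85 (SE 0.142, 95% interval 0.52 to 1.18, adjusted p = 0.0133, limma), a fold change of 1.80. In wild-type islets the difference was 0.05 (-0.28 to 0.38), and the interaction of 0.80 did not pass (SE 0.201, adjusted p = 0.1072). The transgene difference was -0.30 without PBA (adjusted p = 0.2478) and 0.50 under PBA (adjusted p = 0.2429).

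A second probe set of Syvn1 gave the same size of change in hIAPP islets. It read 9.0 and 9.0 in hIAPP islets after PBA against 8.1 and 8.2 in untreated hIAPP islets, a change of 0.85 (adjusted p = 0.0182 in the limma fit of all probe sets). In wild-type islets that set gave 0.30 (adjusted p = 0.6289), where the first gave 0.05. The acinar level moved with this comparison, and with it as a covariate the change was 0.71 (adjusted p = 0.2427) and no longer passed. Within groups, the array with more acinar signal had the higher Syvn1 level in 1 group and the lower in 2, with 1 tied. With 1 pair of arrays per group, this count cannot separate the acinar level from PBA, because both differed between the compared groups. The call was lost whenever 1 of the 4 compared arrays was left out (adjusted p up to 0.1258), while the change stayed between 0.80 and 0.90. Averaged over both genotypes the PBA change was 0.45 (SE 0.101, adjusted p = 0.0483), a call lost in all 8 of those fits (adjusted p up to 0.1959).

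Derl3 encodes a derlin of the ERAD channel that is known to be induced by ER stress. Its levels were 9.0 and 8.7 in hIAPP islets after PBA, 8.6 and 8.8 in untreated hIAPP islets, 8.5 and 8.8 in wild-type islets after PBA, and 8.0 and 7.8 in untreated wild-type islets. The first 3 groups overlapped, and untreated wild-type islets lay below them. Derl3 rose by 0.80 with the transgene in the absence of PBA (SE 0.161, 95% interval 0.42 to 1.18, adjusted p = 0.0204, limma), a fold change of 1.74. The PBA difference was 0.75 in wild-type islets (0.37 to 1.13, adjusted p = 0.1633) and 0.15 in hIAPP islets (-0.23 to 0.53), and the interaction of -0.60 did not pass (adjusted p = 0.2473). Hence Derl3 in hIAPP islets after PBA exceeded untreated wild type by 0.95, which just missed the threshold (adjusted p = 0.0859). With the acinar level as a covariate the transgene change was 0.82 (adjusted p = 0.0363). The call was lost whenever 1 of the 4 compared arrays was left out (0.70 to 0.90, adjusted p up to 0.161) and in the fit with the replicate number as a block (adjusted p = 0.0513). Averaged over both treatments the transgene change was 0.50 (SE 0.114, adjusted p = 0.0387), a call lost in all 8 of those fits, and the PBA change averaged over both genotypes just missed the threshold (0.45, adjusted p = 0.0717). Derl3 has 1 probe set, so no other measures it here.

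Herpud1, an ERAD scaffold that binds HRD1, was higher on all 4 PBA arrays than on all 4 untreated arrays. Its levels were 11.1 and 11.1 in hIAPP islets after PBA, 10.7 and 10.8 in untreated hIAPP islets, 10.9 and 11.0 in wild-type islets after PBA, and 10.7 and 10.7 in untreated wild-type islets. The PBA difference was 0.35 in hIAPP islets (adjusted p = 0.0729, limma), 0.25 in wild-type islets (adjusted p = 0.4125) and 0.30 averaged over both (SE 0.068, adjusted p = 0.0503), and none of them passed. Its second probe set differed by 0.40 and 0.35 in hIAPP and wild-type islets.

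The other ERAD genes did not pass on their brightest probe sets, although dimmer sets of Derl2 and Edem1 differed by more. Sel1l, the partner of HRD1, had 9.9 and 9.9 in hIAPP islets after PBA, 9.8 and 9.9 in untreated hIAPP islets, 9.8 and 9.8 in wild-type islets after PBA, and 9.7 and 9.6 in untreated wild-type islets. Its PBA difference in hIAPP islets was 0.05 (adjusted p = 0.8239, limma), beside 0.85 for Syvn1. Edem1 to Edem3, which trim or recognise glycans of misfolded proteins, differed by 0.0, 0.10 and 0.20 after PBA in hIAPP islets. Os9 and Erlec1, the lectins that deliver glycoproteins to HRD1, had 9.4 and 9.4, and 10.4 and 10.4, in both hIAPP groups. The transgene difference averaged over both treatments was 0.23 for Erlec1 and just missed the threshold (adjusted p = 0.0843, limma). Derl1 and Derl2, the other derlins, differed by 0.0 and 0.20 after PBA in hIAPP islets, against 0.15 for Derl3. The second probe set of Derl2 read 8.9 and 9.1 in hIAPP islets after PBA, 8.5 and 8.7 in untreated hIAPP islets, 9.3 and 9.3 in wild-type islets after PBA, and 9.2 and 9.1 in untreated wild-type islets. It was called for the transgene without PBA (-0.55, adjusted p = 0.0447 in the limma fit of all probe sets), where the brightest set gave -0.15, and it differed by 0.40 after PBA in hIAPP islets (adjusted p = 0.1365). The second set of Edem1 gave -0.45 and 0.55 in those comparisons (adjusted p = 0.1107 and 0.0694), where the brightest gave 0.15 and 0.0. On the brightest sets all 11 ERAD genes had higher means in hIAPP islets after PBA than in untreated wild-type islets, with a median difference of 0.20 against 0.15 over the 37 ER genes and 0.0 over all genes, and none of them passed.

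The 4 genes listed as sensors encode ATF6, IRE1 and PERK, which start the UPR, and XBP1, which is made after IRE1 acts. None of them passed in a comparison of 2 groups. Atf6 had 8.5 and 8.5 in hIAPP islets after PBA, 8.4 and 8.3 in untreated hIAPP islets, 8.8 and 8.8 in wild-type islets after PBA, and 8.6 and 8.7 in untreated wild-type islets. All hIAPP arrays lay below all wild-type arrays. The transgene difference was -0.30 with PBA and -0.30 without it (adjusted p = 0.2904 and 0.0987, limma), and the interaction was 0.0 (-0.32 to 0.32). Averaged over both treatments Atf6 fell by 0.30 (SE 0.068, adjusted p = 0.0386), although this call was lost in each of the 8 fits that left out an array (adjusted p up to 0.1117, changes of -0.33 to -0.28). Its second probe set gave -0.15 for the transgene without PBA.

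Xbp1, the transcription factor whose mRNA is spliced by IRE1, had 11.7 and 11.9 in hIAPP islets after PBA, 11.8 and 11.9 in untreated hIAPP islets, 12.0 and 12.0 in wild-type islets after PBA, and 11.9 and 11.9 in untreated wild-type islets. Its differences were -0.05 for the transgene without PBA, -0.05 for PBA in hIAPP islets and 0.10 for PBA in wild-type islets, and these arrays do not separate spliced from unspliced mRNA. Ern1, which encodes IRE1 alpha, had 9.7 and 9.8 in hIAPP islets after PBA, 9.8 and 9.9 in untreated hIAPP islets, 9.6 and 9.7 in wild-type islets after PBA, and 9.6 and 9.7 in untreated wild-type islets. The transgene difference of 0.20 without PBA did not pass (adjusted p = 0.283, limma). The second probe set of Ern1 read 5.8 to 6.3 on the hIAPP arrays and 5.1 to 5.6 on the wild-type arrays. It gave 0.65 without PBA and 0.60 under PBA, and neither passed (adjusted p = 0.1168 and 0.3637 in the limma fit of all probe sets). The remaining sets of Ern1 lay near or below the background level. Eif2ak3, which encodes PERK, had 9.0 and 9.1 in hIAPP islets after PBA, 8.6 and 8.8 in untreated hIAPP islets, 9.0 and 8.9 in wild-type islets after PBA, and 8.8 and 8.9 in untreated wild-type islets. Its PBA difference in hIAPP islets was 0.35 (adjusted p = 0.1116).

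The 2 translocation genes encode subunits of the SEC61 channel. Sec61a1 had 11.5 and 11.6 in hIAPP islets after PBA, 11.2 and 11.3 in untreated hIAPP islets, 11.4 and 11.5 in wild-type islets after PBA, and 11.5 and 11.5 in untreated wild-type islets. Untreated hIAPP islets were lowest. The PBA difference in hIAPP islets was 0.30 (adjusted p = 0.1233, limma) and the transgene difference without PBA was -0.25 (adjusted p = 0.1703). Sec61b differed by 0.15 and -0.05 in those comparisons.

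**Figure D5:**
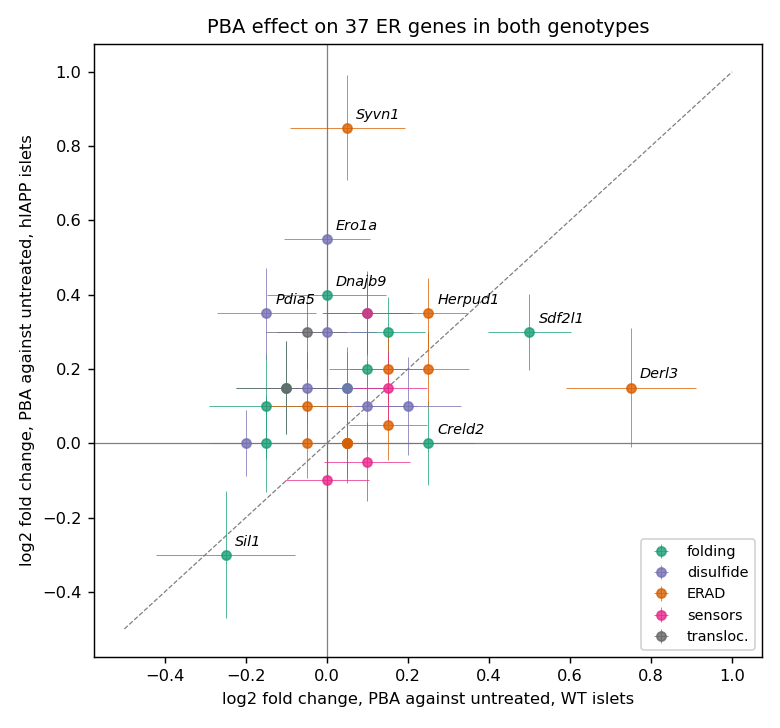
PBA change of the 37 ER genes in hIAPP islets (vertical axis) against that in wild-type islets (horizontal axis), as log2 fold changes with bars of 1 SE and colours by role. Syvn1 and Ero1a lie high near 0 on the horizontal axis, while Derl3 (0.15 and 0.75) and Sdf2l1 (0.30 and 0.50) lie to the right.

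Genes with and without an ERSE or ERSE-II gave the same median for PBA in hIAPP islets. It was 0.15 over the 12 measured genes with a match (0.0 to 0.85) and 0.15 over the 18 whose windows hold neither (-0.10 to 0.55). For the transgene without PBA the medians were 0.0 and -0.05. The called genes fell on both sides, since Syvn1 and Derl3 hold an ERSE and Ero1a and Sdf2l1 hold none.

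Another 80 measured ER genes outside the list, in 6 lists by function, held 6 higher and 2 lower calls for the transgene without PBA, and 3 higher and 5 lower for PBA in hIAPP islets. These 8 of 80 in each comparison are near the 11.0% and 8.09% called over all genes. None passed for PBA in wild-type islets or for the transgene under PBA with limma. At an unadjusted p under 0.05 there were 2 and 6 of 80, against 10.5% and 12.1% of all genes. The 14 genes of the translocon and signal peptidase and the 15 of N-glycan processing held 0 calls in all 4 of these comparisons. At that unadjusted threshold they held 2 and 1 for the transgene without PBA (4293 of all 17097 genes) and 3 and 0 for PBA in hIAPP islets (3928). They held 1 and 0 for PBA in wild-type islets (1801), and 1 and 0 for the transgene under PBA (2072). Their medians were -0.10 and -0.10 for the transgene and 0.18 and 0.15 for PBA in hIAPP islets. The transgene comparison without PBA and that of PBA in hIAPP islets share the untreated hIAPP arrays, so opposite changes in them are not independent. The oxidoreductase list of 14 genes had 3 called higher with the transgene (7.77% of all genes) and lower after PBA in hIAPP islets (6.32%). One was Prdx4, an ER peroxiredoxin, with 9.1 and 9.1 in hIAPP islets after PBA, 9.8 and 9.8 in untreated hIAPP islets, 9.1 and 9.0 in wild-type islets after PBA, and 9.2 and 9.0 in untreated wild-type islets. Prdx4 rose by 0.70 with the transgene (adjusted p = 0.0065, limma) and fell by 0.70 after PBA in hIAPP islets (adjusted p = 0.0096). The other 2 were the ER glutathione peroxidases Gpx8 (1.70 and -1.60) and Gpx7 (1.15 and -1.15), at dim levels of 4.5 to 6.7. These changes ran the way of the stellate-cell markers, whose median differences were 1.90 and -1.35, and of the macrophage markers, with 1.95 and -1.25, and the part of those cells in them was not tested. Txndc11, a thioredoxin-domain protein of the ER, rose by 0.45 after PBA in hIAPP islets (adjusted p = 0.0325).

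Among the 16 further ERAD genes Nploc4, the NPL4 cofactor of the VCP ATPase, was called lower with the transgene and higher after PBA in hIAPP islets, as Ero1a was. It had 7.6 and 7.5 in hIAPP islets after PBA, 7.1 and 7.1 in untreated hIAPP islets, 7.5 and 7.6 in wild-type islets after PBA, and 7.6 and 7.5 in untreated wild-type islets. Nploc4 fell by 0.45 with the transgene (adjusted p = 0.0292, limma) and rose by 0.45 after PBA in hIAPP islets (adjusted p = 0.0362). Of 9 further chaperones and prolyl isomerases, Fkbp7, an ER prolyl isomerase, had 6.6 and 6.6 in hIAPP islets after PBA against 7.8 and 7.8 in untreated hIAPP islets, with 6.4 and 6.2 in wild-type islets after PBA and 6.1 and 6.3 in untreated wild-type islets. It rose by 1.60 with the transgene (adjusted p = 4.9e-04) and fell by 1.20 after PBA in hIAPP islets (adjusted p = 0.0022). Fkbp11, a related gene, was called higher with the transgene by 0.45 (adjusted p = 0.0292), whereas the median of its probe sets gave -0.20 (adjusted p = 0.6611).

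Of 12 further UPR regulators, Bhlha15, a transcription factor of secretory cells that is induced by XBP1, had 9.7 and 9.7 in hIAPP islets after PBA, 8.6 and 8.7 in untreated hIAPP islets, 9.4 and 9.6 in wild-type islets after PBA, and 9.2 and 9.2 in untreated wild-type islets. It fell by 0.55 with the transgene (adjusted p = 0.0177, limma) and rose by 1.05 after PBA in hIAPP islets (adjusted p = 0.0025), and the interaction of 0.75 did not pass (adjusted p = 0.0586). Bhlha15 is also on the acinar marker list, whose median difference for PBA in hIAPP islets was -2.20. Stc2, a secreted ER stress gene, rose by 1.05 with the transgene (adjusted p = 0.0054) and fell by 0.95 after PBA in hIAPP islets (adjusted p = 0.0114), at levels of 4.3 to 5.6, near the background.

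Among the calls on the 80 further ER genes that are named here, those of Fkbp7 in both comparisons and of Bhlha15 for PBA passed in all 8 fits that left out an array, and each of the others was lost in at least 2 of the 8.

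Of 7 targets of the PERK arm, 1 passed for PBA in hIAPP islets (8.09% of all genes) and 1 for the transgene without PBA (11.0%). Atf4, the transcription factor of this arm, rose after PBA in hIAPP islets. Atf4 had 11.1 and 11.1 in hIAPP islets after PBA, 10.5 and 10.6 in untreated hIAPP islets, 11.0 and 11.1 in wild-type islets after PBA, and 10.7 and 10.7 in untreated wild-type islets, and the change in hIAPP islets was 0.55 (adjusted p = 0.0154, limma). In wild-type islets the PBA change of Atf4 was 0.35 and did not pass (adjusted p = 0.2690, limma). Chac1, a glutathione-degrading enzyme, fell by 0.40 with the transgene (adjusted p = 0.0403). Ppp1r15a, another target, differed by 0.35 the other way and just missed the threshold (adjusted p = 0.0695). The Atf4 call was kept in 4 of 8 fits that left out an array (adjusted p up to 0.0902), and that of Chac1 in 2 of 8 (adjusted p up to 0.161). Ddit3, which encodes the pro-apoptotic factor CHOP, differed by 0.25 for the transgene without PBA and by 0.30 for PBA in hIAPP islets, and neither passed. For hIAPP islets after PBA against untreated wild type, 0 of 7 targets passed. In that comparison 5 of 7 had an unadjusted p under 0.05 with limma (11.0% of all genes).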

How the data were processed

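Total RNA of islets was hybridised to 8 Affymetrix arrays, 2 per group. The deposited table holds log2 values that the authors made with RMA (affy package, version not given in the sources used here, per the submitters' processing notes) and rounded to 1 decimal; the number of arrays limits precision. Quantile normalisation within RMA gives each array the same distribution over its probes, so a shift common to all probes is not seen. Of 45141 probe sets, 104 controls were left out of the tests, 28898 name 1 gene symbol in the platform annotation, 551 several and 15588 none. The brightest single-symbol probe set stood for each of 17097 genes. All 8 arrays were fitted as 4 group means with limma 3.58.1 in R 4.3.3 (4 residual degrees of freedom, 3.27 prior), with two-sided tests, Benjamini-Hochberg adjustment over 17097 genes and a threshold of 0.05. Probe sets differ in response, so levels were compared between arrays and not between genes. Motifs were searched in RefSeq windows of GRCm38.p6 with Python 3.11.15 and pandas 2.3.3, and plots used matplotlib 3.10.9. The procedure was tested on simulated data.

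The genes named in any case were those past the threshold, the sensors, Hspa5, Hsp90b1, Herpud1, and of each further list up to 4 genes with the smallest p among those that passed; members with an adjusted p of 0.05 to 0.10 are given as near misses. The members and lists were chosen with earlier results of these data known. Alternatives were a filter on dim probe sets, all probe sets fitted, the median of a gene's probe sets, centred arrays, only the arrays compared, a mean-variance trend, array weights, each array left out, the arrays in doubt left out, the replicate number as a block and the acinar level as a covariate. Pairing was checked by correlating, across genes, the difference between replicates 1 and 2 of one group with that of another. The 6 values lay between -0.14 and 0.10, so no strong pairing by number was seen. A weak pairing cannot be detected in this way.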

Additional observations from a re-analysis of the deposited data

Results flagged for a closer look

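The PBA effect differed between the genotypes, by the interaction test in limma, for 2 of the 80 further ER genes and for none of the 37 measured genes of the group. The test called 1.96% of all genes, so 2 of 80 is near that share. It also called 4 of 14 stellate-cell and 2 of 15 macrophage markers lower, and 0 of 10 beta-cell markers. The part of those cells in the 2 results was not tested. Fkbp7, an ER prolyl isomerase, changed by -1.20 after PBA in hIAPP islets and by 0.10 in wild-type islets, so the difference of the effects was -1.3 (adjusted p = 0.0185). Stc2, a secreted ER stress gene read near the background, changed by -0.95 and 0.35, a difference of -1.3 (adjusted p = 0.0364). Both calls were lost in all 8 fits that left out an array, in which Fkbp7 gave -1.4 to -1.2 (adjusted p up to 0.1246) and Stc2 gave -1.45 to -1.15 (adjusted p up to 0.1695).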

How the results depend on the processing

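The number of ER genes past the threshold moved with the processing, and the causes were not tested. The share called over all genes moved as well. It stands beside only some of the counts here, so the others cannot be read as particular to the ER genes. As reported it was 2 for the transgene without PBA, 2 for PBA in hIAPP islets, 3 for the averaged transgene effect, 2 for the averaged PBA effect and 0 for the other 4 comparisons. A filter on dim probe sets, which leaves 10658 genes, gave 4 for PBA in hIAPP islets and 5 for averaged PBA. Fitting all probe sets gave 0 for the averaged transgene and 1 for averaged PBA. The median of a gene's probe sets gave 4 for averaged PBA and 1 for the interaction (Pdia6), and turned the transgene change of Fkbp11 to -0.2. Centred arrays gave 10 for the transgene (25.4% of all genes) and 17 for PBA in hIAPP islets (20.5%). For averaged PBA they gave 9, all higher, beside 796 higher and 548 lower among all 17097 genes. Only the arrays compared gave 1 and 0 for the transgene and PBA in hIAPP islets. A mean-variance trend gave 4 for the transgene, 8 for PBA in hIAPP islets, 5 for the averaged transgene and 8 for averaged PBA. It also gave 1 for PBA in wild-type islets (0.702% of all genes), 3 for treated hIAPP against untreated wild type (1.01%) and 2 for the interaction (3.37%). Without both arrays in doubt (wild type after PBA, replicate 1, and hIAPP after PBA, replicate 1) the counts were 1 for the transgene and 0 for PBA in hIAPP islets and for both averaged effects. The replicate block gave 1 for the transgene, 0 for the averaged transgene and 1 for averaged PBA, with Ero1a at an adjusted p of 0.0294 for the transgene and 0.0486 for PBA in hIAPP islets. The acinar covariate gave 0 for PBA in hIAPP islets and for both averaged effects. Leaving out each array in turn gave 0 to 2 for the transgene, 0 to 2 for PBA in hIAPP islets, 0 to 3 for the averaged transgene, 0 to 1 for averaged PBA and 0 for the rest. Array weights left every count as it was. Of 297 alternative values for 17 results on the 37 measured genes of the group (the further ER genes, such as Fkbp11, are not among them), 188 stayed on their side of the threshold, 22 newly passed, 87 no longer passed and 0 changed sign.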
